A study of Mus musculus with 4 samples.

Results

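The nuclear genes of oxidative phosphorylation were examined in the E14.5 mouse cortex with and without the RNA-binding protein Quaking (Qki, encoded by Qk). Members were all genes of the deposited expression tables whose symbol starts with Nduf followed by a, b, c, s or v and a digit, is Sdha, Sdhb, Sdhc or Sdhd, or starts with Uqcr, Atp5 or Cox4 to Cox8 with the letter a, b or c. This rule used no measured value and found 82 of 23038 genes: 37 of complex I, 4 of complex II, 8 of complex III, 16 of complex IV and 17 of complex V. Symbols alone decided membership, so that genes such as Cox4i1, Cyc1 and Ndufab1 lie outside the rule, whereas Ndufa4, now regarded as a subunit of complex IV, was counted by its symbol under complex I. Poly-A RNA was sequenced from embryonic cortex of 2 controls, labelled wild type and described by the study as Qk fl/fl, and of 2 Qk cKO embryos, Qk fl/fl with a Nestin-Cre transgene. In Qk cKO, the Nestin promoter drives Cre in neural progenitors, where exon 2 of Qk between loxP sites is removed. Cells of other origin in the same tissue, such as blood, vessel and microglial cells, are not expected to carry this deletion. All 4 samples are E14.5. The study calls the embryos littermates but ties no sample to a litter and does not mention pooling of cortices. The p-values of expression levels measure the spread between these 4 samples, whereas Fisher's exact test on splicing tags leaves that spread out.

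Oxidative phosphorylation takes place in the inner mitochondrial membrane. Complex I oxidises NADH and complex II oxidises succinate, and both pass electrons to ubiquinone, from which complex III hands them to cytochrome c and complex IV to oxygen. Complexes I, III and IV pump protons, and complex V, the ATP synthase, uses the returning protons to make ATP. Most subunits are encoded in the nucleus, and a few core subunits in mitochondrial DNA. Cortical progenitors rely strongly on glycolysis, and neurons rely more on oxidative phosphorylation.

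For each gene the authors deposited the number of tags (estimated counts of reads) and the RPKM (tags scaled by the exon length of the gene and by the total of the sample). The samples held 37942046 to 42994832 tags on 17555 to 17676 genes. Members took 1.03% and 0.976% of all tags in control and 0.987% and 0.912% in Qk cKO. The deletion was seen in the samples labelled Qk cKO, since the junction of Qk exons 2 and 3 had 635 and 565 tags in control and 63 and 68 in Qk cKO, although the tags over the whole Qk gene were higher in Qk cKO (log2 fold change 0.65). Markers of the cortex were present in all 4 samples, with a summed RPKM of 518 and 461 in control and 466 and 518 in Qk cKO. Xist reached 57.1 RPKM in control 1 and 64.5 in Qk cKO 1, and 0.0265 and 0.00951 in the samples numbered 2, whereas the Y-linked gene Ddx3y was listed at 0 in the samples numbered 1 and at 13.2 and 15.9 RPKM in those numbered 2. Each group therefore held 1 sample of each kind.

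Members were well expressed in this tissue, with a median log2 CPM of 6.44 in control 1 against 3.81 over all genes tested, and their levels spread widely within a complex. Of the 82 members, 79 had at least 1 tag in any sample and were tested, and 78 had a mean RPKM of at least 1. The members not tested were Cox6a2, Cox8b and Cox8c, listed at 0 in all 4 samples, and Cox7b2 had tags in Qk cKO 2 only, at 0.0448 RPKM. The highest mean RPKM in each complex was 353 for Ndufa4, 179 for Sdhb, 362 for Uqcrh, 438 for Cox6b1 and 648 for Atp5b, the catalytic beta subunit of the ATP synthase. The lowest mean RPKM above 1 was 3.99 for Ndufa4l2, a paralog of Ndufa4 known from hypoxic cells, 44.6 for Sdhd, 39.7 for Uqcrfs1, the Rieske iron-sulfur protein, 4.03 for Cox7a1 and 3.15 for Atp5s. In complexes II and III every member was thus well expressed, whereas the members with tags and a mean under 10 RPKM were the paralogs Ndufa4l2, Cox6b2, Cox7a1 and Cox7b2, and Atp5s and Atp5sl, whose proteins are not structural subunits.

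**Figure D1:**
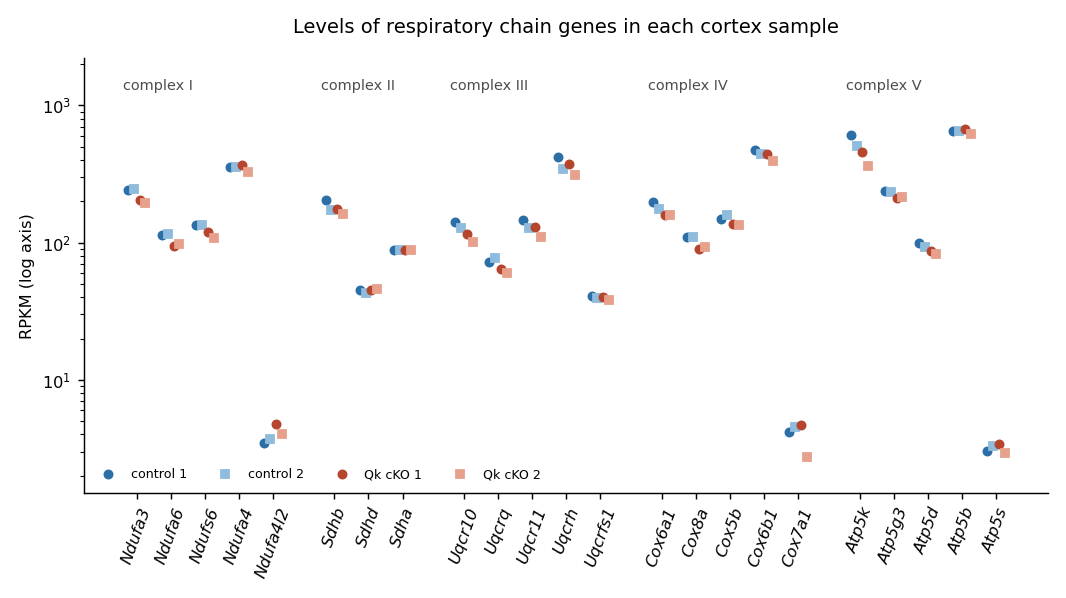
RPKM (log axis) in each of the 4 samples of the members with the 3 smallest p-values in each complex and of the members with the highest and the lowest mean RPKM above 1. For Atp5k both Qk cKO samples (460 and 360) sit below both controls (614 and 507), whereas for Atp5b the 4 samples sit together near 648.

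1 member was called for its steady-state level in Qk cKO, and the call depended on the settings. Atp5k encodes subunit e of the ATP synthase, a small membrane subunit that takes part in dimers of the enzyme. Its RPKM was 614 and 507 in control and 460 and 360 in Qk cKO. Both Qk cKO samples lay below both controls, and the replicates of each group were themselves apart. Atp5k fell by 0.44 on the log2 scale (SE 0.0901, FDR 0.0437 over 18834 genes in edgeR's quasi-likelihood test), to 0.739 of control. The call did not hold in DESeq2 (FDR 0.589) or when weak genes were filtered out first by filterByExpr (FDR 0.37), and it was lost without control 1 (log2 fold change -0.29), control 2 (-0.57) or Qk cKO 2 (-0.26), and kept without Qk cKO 1. GENCODE M21 names 1 pseudogene of Atp5k, so that reads may be shared between the copies. The limits of a call were an unadjusted p of 0.01 and an FDR of 0.1, and over all genes tested 0.377% were called lower and 0.207% higher. No member was called higher. Atp5k is short, with an exon length of 292 nt. Among the 1063 genes under 1000 nt with a mean RPKM of at least 1, 15 were called lower and 1 higher. Among the 54 tested members under 1000 nt, 1 was called lower and 0 higher. The study's own edgeR list of changed transcripts, at the same limits, does not hold Atp5k.

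Beyond Atp5k, the members as a group leaned below control by a small amount. The median log2 fold change of the 79 members tested was -0.11 against -0.0025 for all genes tested, and 65 of the 79 were below 0. An unadjusted p below 0.05 was reached by 22 members, all of them lower in Qk cKO, and by 0 that were higher. Over all genes tested, 4.43% reached this p with lower and 4.33% with higher levels. Most members are short, under 1000 nt. Of the 1063 genes under 1000 nt with a mean RPKM of at least 1, 139 reached it with lower and 17 with higher levels. Among the 54 tested members under 1000 nt, 19 and 0 did. In 36 of the 82 members both Qk cKO samples lay below both controls in RPKM, and in 2, Ndufa10 and Ndufa4l2, both lay above. Of all genes tested, 20.6% and 16.3% did so. Of the 1063 short genes, 363 lay below and 81 above, and of the 54 short members 30 and 1. The members share libraries, so these counts describe the list and carry no test of their own.

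The size of this lean was close to the difference between replicates. The median log2 CPM of the members was 6.44 and 6.34 in control 1 and 2 and 6.35 and 6.17 in Qk cKO 1 and 2, so that control 2 and Qk cKO 1 were alike and Qk cKO 2 was the lowest. Between replicates, the members differed by a median of -0.06 (control 2 minus control 1) and -0.14 (Qk cKO 2 minus Qk cKO 1). Among the samples numbered 1, in which Xist was high, the median difference of Qk cKO minus control in log2 CPM was -0.08 with 62 of 79 members below 0, and among those numbered 2 it was -0.15 with 70 below 0. In 57 of the 79 members the difference was below 0 under both numbers. The median log2 fold change was -0.20 without Qk cKO 1 and -0.03 without Qk cKO 2, and 14 members were called without Qk cKO 1 and 0 without any of the other 3 samples.

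**Figure D2:**
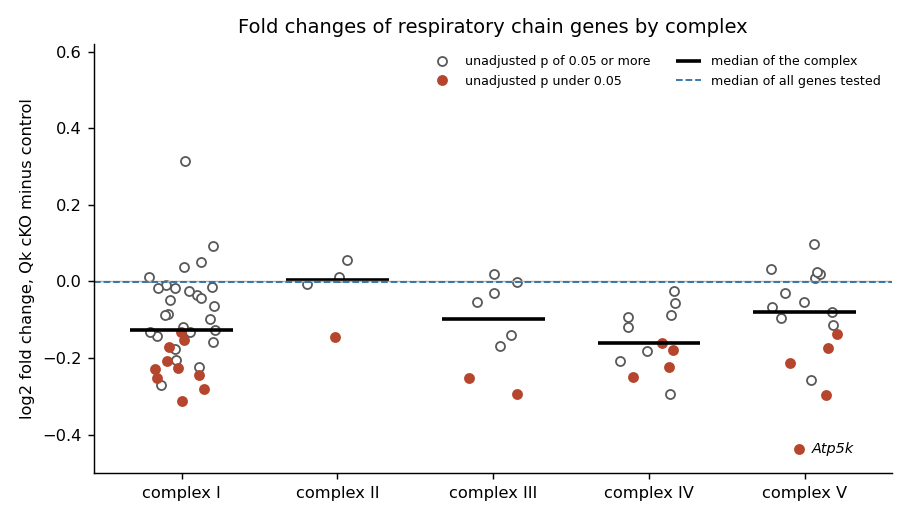
Log2 fold change (Qk cKO minus control) of each member with a mean RPKM of at least 1, by complex, with filled points for an unadjusted p below 0.05, black bars for the complex medians and a dashed line for all genes tested (-0.0025). Filled points lie below 0 in every complex, Atp5k is the lowest, and the median of complex II lies at 0.0033.

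In complex I the accessory subunits lay lower than the catalytic core. The 30 accessory members had a median log2 fold change of -0.14, 26 of them below 0 and 10 with an unadjusted p below 0.05. The 7 nuclear core subunits, which hold the flavin and the iron-sulfur clusters of the enzyme, had a median of -0.03 and none with such a p. None of the 37 members of complex I was called, and the difference between the sets was not tested. The median exon length was 560.5 nt for the accessory members and 1472 nt for the core. The part of length in this difference was not tested either.

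The accessory subunit Ndufa3 had 242 and 248 RPKM in control and 204 and 196 in Qk cKO (log2 fold change -0.28, SE 0.0775, FDR 0.179 in edgeR's quasi-likelihood test). Ndufa6, of the LYR protein family, had 114 and 116 RPKM in control and 94.7 and 97.2 in Qk cKO (-0.25, FDR 0.277). Ndufs6, a zinc-binding subunit needed late in assembly, had 136 and 134 RPKM in control and 119 and 108 in Qk cKO (-0.23, FDR 0.285). In all 3 genes the groups did not overlap and the difference between groups exceeded that between replicates, but none passed the adjustment over all genes. They were picked for the smallest p-values in complex I, so that separated groups follow in part from that choice. Both Qk cKO samples lay below both controls in 21 of the 37 members of complex I and in 20.6% of all genes tested.

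Among the core subunits, levels in the groups mostly overlapped. Ndufv1, the subunit that binds NADH and the flavin, had 78.3 and 72.7 RPKM in control and 76.1 and 70.9 in Qk cKO (log2 fold change -0.03, 95% interval from the fit -0.15 to 0.10). Its partner Ndufv2 had 94.3 and 96.1 RPKM in control and 90.7 and 85.5 in Qk cKO (-0.10, FDR 0.667 in edgeR's quasi-likelihood test). Ndufs1, the largest iron-sulfur subunit, had 37.7 and 36.4 RPKM in control and 37.2 and 38.1 in Qk cKO (0.04). The log2 fold changes of further core subunits were -0.02 for Ndufs3, -0.13 for Ndufs7 and -0.04 for Ndufs8. Of the core subunits, Ndufv2 and Ndufs7 had both Qk cKO samples below both controls.

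Ndufa4 was far above its paralog Ndufa4l2 in level. Ndufa4 had 355 and 359 RPKM in control and 369 and 329 in Qk cKO (log2 fold change -0.02). Ndufa4l2 had 3.46 and 3.69 RPKM in control and 4.75 and 4.04 in Qk cKO (0.31, SE 0.191, FDR 0.713 in edgeR's quasi-likelihood test). Ndufa4l2 was the member with the highest log2 fold change among those with a mean RPKM of at least 1, and it did not pass the test.

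Of the 3 members on the X chromosome, Ndufa1 and Ndufb11 are small membrane subunits of complex I and Cox7b is a subunit of complex IV. Ndufa1 had 88.5 and 81.6 RPKM in control and 71.9 and 64.0 in Qk cKO (log2 fold change -0.31, SE 0.107, FDR 0.323 in edgeR's quasi-likelihood test). Ndufb11 had 101 and 90.1 RPKM in control and 88.3 and 73.2 in Qk cKO (-0.23, FDR 0.393). Cox7b had 123 and 118 RPKM in control and 117 and 112 in Qk cKO (-0.06). For Ndufa1 the difference in log2 CPM was -0.30 among the samples numbered 1 and -0.35 among those numbered 2, for Ndufb11 it was -0.19 and -0.30, and for Cox7b it was -0.07 under both. Each of these values sets a single sample against another, and the part of the Xist levels in them was not tested.

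Complex II, whose 4 subunits are all encoded in the nucleus, had a median log2 fold change of 0.0033. Sdhb, the iron-sulfur subunit, had 204 and 173 RPKM in control and 176 and 162 in Qk cKO, so that the groups overlapped (-0.14, FDR 0.568 in edgeR's quasi-likelihood test). Sdha, the flavoprotein that oxidises succinate, had 87.7 and 89.0 RPKM in control and 88.5 and 88.1 in Qk cKO (0.01, 95% interval -0.12 to 0.14). The membrane anchors Sdhd (0.06) and Sdhc (-0.01) also overlapped between the groups.

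In complex III the median log2 fold change of the 8 members was -0.10 and none was called, 2 having an unadjusted p below 0.05. Uqcr10 had 141 and 127 RPKM in control and 115 and 102 in Qk cKO (log2 fold change -0.30, SE 0.0932, FDR 0.27 in edgeR's quasi-likelihood test). Uqcrq, a subunit close to the site of ubiquinone binding, had 72.0 and 77.5 RPKM in control and 64.3 and 60.0 in Qk cKO (-0.25, FDR 0.473). Uqcr11 had 146 and 127 RPKM in control and 130 and 110 in Qk cKO (-0.17, FDR 0.61). Only Uqcr10 and Uqcrq of the 8 had groups that did not overlap, where 20.6% of all genes tested had both Qk cKO samples below both controls. The core proteins Uqcrc1 and Uqcrc2 had log2 fold changes of -0.0028 and 0.02, Uqcrfs1 of -0.03 and the small subunit Uqcrb of -0.05. Uqcrh, the acidic hinge protein, ranged from 311 to 422 RPKM with overlapping groups.

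In complex IV the median log2 fold change of the 13 members tested was -0.16, the lowest of the 5 complexes, and none was called. Cox6a1 had 199 and 175 RPKM in control and 158 and 159 in Qk cKO (-0.22, SE 0.0667, FDR 0.223 in edgeR's quasi-likelihood test). Cox8a had 111 and 109 RPKM in control and 90.2 and 92.8 in Qk cKO (-0.25, FDR 0.302). Cox5b, a zinc-binding subunit, had 148 and 159 RPKM in control and 137 and 134 in Qk cKO (-0.16, FDR 0.435). The groups of these 3 members did not overlap, which follows in part from their choice by the smallest p-values. Both Qk cKO samples lay below both controls in 6 of the 13 members tested, against 20.6% of all genes tested.

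Complex IV is also where tissue-specific isoforms are best known, and the cortex held the widely expressed ones. Cox6a1 had a mean of 173 RPKM and the muscle form Cox6a2 was listed at 0. Cox6b1 had 473 and 443 RPKM in control and 446 and 390 in Qk cKO (log2 fold change -0.12), whereas its testis paralog Cox6b2 had 4.28 and 4.89 in control and 3.29 and 4.12 in Qk cKO (-0.29, FDR 0.804 in edgeR's quasi-likelihood test). Cox7a2 had 225 and 207 RPKM in control and 207 and 172 in Qk cKO (-0.18), and the muscle form Cox7a1 had a mean of 4.03 (-0.21, SE 0.329). Cox7a2l, which joins complexes III and IV into supercomplexes, had a mean of 125 RPKM (-0.03). Cox8a was the member of its family with tags, and Cox8b and Cox8c were listed at 0 throughout. The muscle and testis forms stayed under 5 RPKM in every sample of both genotypes.

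In complex V the median log2 fold change was -0.08, with 5 of 17 members at an unadjusted p below 0.05 and the catalytic head close to control. Atp5g3 and Atp5d had the smallest p-values after Atp5k. Atp5d, the delta subunit of the central stalk, had a mean of 96.3 ± 5.22 RPKM (SD, n = 2) in control and 84.7 ± 2.27 in Qk cKO, and the groups did not overlap (log2 fold change -0.17, FDR 0.401 in edgeR's quasi-likelihood test). The head subunits Atp5a1 and Atp5b had log2 fold changes of 0.03 and 0.0078, and the gamma subunit Atp5c1 of 0.02. Their exon lengths are 2128, 1879 and 1800 nt, against a median of 784 nt in complex V.

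The ring of c subunits is encoded by Atp5g1, Atp5g2 and Atp5g3, which give the same mature protein. Atp5g3 had 238 and 233 RPKM in control and 210 and 215 in Qk cKO (log2 fold change -0.14, SE 0.052, FDR 0.40 in edgeR's quasi-likelihood test). Atp5g2 had 16.3 and 17.5 RPKM in control and 14.2 and 13.1 in Qk cKO (-0.30, FDR 0.50). Atp5g1 had 39.3 and 41.9 RPKM in control and 45.1 and 41.0 in Qk cKO (0.10, FDR 0.863). Atp5g3 therefore carried most of the level of this family in all 4 samples, and the groups of Atp5g1 overlapped while those of the others did not.

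Members differ in length, and their fold changes were ordered by it. Exon length is the length that the deposited table gives for a gene, and a limit of 1000 nt was chosen after the values were seen. The median exon length of tested members was 651 nt in complex I, 1232 in II, 551 in III, 543 in IV and 784 in V. The part of length in the differences between complexes was not tested. The 54 members tested under 1000 nt had a median log2 fold change of -0.16, with 19 of the 22 members at an unadjusted p below 0.05 among them, whereas the 25 members of 1000 nt or more had a median of -0.0096. Spearman's correlation of log2 fold change and exon length was 0.591 over the 79 members, which share the same 4 libraries, and 0.219 over all 12743 genes with a mean RPKM of at least 1.

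The same order was present in genes outside the list. Among all genes with a mean RPKM of at least 1, the median log2 fold change was -0.09 under 1000 nt, -0.03 from 1000 to under 2000 nt, -0.00032 from 2000 to under 4000 nt and 0.03 at 4000 nt or more. With the smooth trend of fold change on length removed over all genes, the median of the members was -0.02, 44 of 79 were below 0, 2 were lower and 1 higher at an unadjusted p below 0.05, and none was called (Atp5k FDR 0.32). With the trend removed from each sample, an alternative added after the data were seen, the median was also -0.02 and Atp5k was called (FDR 0.0291). Between Qk cKO 2 and Qk cKO 1, members under 1000 nt differed by a median of -0.16 and members of 1000 nt or more by -0.11. Between control 2 and control 1 these medians were -0.08 and -0.06. For the members both gaps were smaller than that between the genotypes, with medians of -0.16 and -0.0096. Over all genes with a mean RPKM of at least 1, the length order was also present between replicates. Those under 1000 nt differed by a median of -0.094 (Qk cKO 2 minus Qk cKO 1) and -0.064 (control 2 minus control 1). Those of 4000 nt or more differed by 0.020 and 0.019. Between the genotypes the medians of these 2 length classes were -0.086 and 0.027. RNA quality was not measured in these files, and its part in the length order was not tested.

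**Figure D3:**
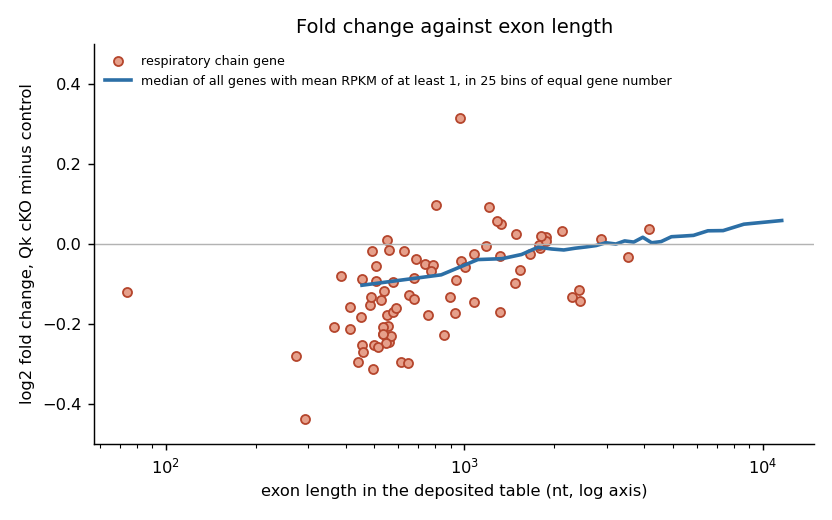
Log2 fold change (Qk cKO minus control) against exon length in nt (log axis) for the 78 members with a mean RPKM of at least 1, with the median of all 12743 such genes in 25 bins of equal gene number as a line. Short members lie lowest and both the points and the line rise with length, the line from below 0 for short genes to above 0 for the longest.

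Other genes of the respiratory system gave few calls, where 0.377% of all genes tested were called lower and 0.207% higher. Of 47 assembly factors, which insert cofactors or join subunits, 1 was called: 1810043H04Rik (Ndufaf8, an assembly factor of complex I) had 9.23 and 10.1 RPKM in control and 4.77 and 5.98 in Qk cKO (log2 fold change -0.84, SE 0.198, FDR 0.0887 in edgeR's quasi-likelihood test). Both Qk cKO samples lay below both controls. The study's own list of changed transcripts holds this gene. The 47 factors had a median log2 fold change of -0.05. None of the 16 enzymes of the citric acid cycle was called or had an unadjusted p below 0.05 (median 0.02, with 5 below 0), and the enzymes have a median exon length of 2764 nt against 651 nt for the members. None of 16 regulators of mitochondrial genes, among them Nrf1, Gabpa, Yy1, Tfam and Ppargc1a, was called or had such a p (median -0.0025). The 8 respiratory genes outside the rule had a median of -0.06 and no call, with Cox4i1 at 477 and 451 RPKM in control and 470 and 402 in Qk cKO (-0.08). Cytosolic ribosomal proteins, a set of short and highly expressed genes added after the data were seen, had a median of -0.13 with 6 of 79 called lower and 0 higher. Of these 79, 71 were below 0, and 28 had an unadjusted p below 0.05 with lower and 0 with higher levels. In 35 both Qk cKO samples lay below both controls, and in 0 above. For the 79 tested members the counts were 65 below 0, 22 and 0, and 36 and 2. The lean was thus not particular to the members.

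Markers of cell types were called in 2 of the lists, radial glia and blood. Of the 10 markers of radial glia, the progenitors of the cortex, Fabp7 (log2 fold change -0.45, FDR 0.0153) and Slc1a3 (-0.23, FDR 0.0887) were called lower in edgeR's quasi-likelihood test, whereas 4 of the 10 had log2 fold changes above 0. Their summed RPKM was 1697 and 1572 in control and 1395 and 1333 in Qk cKO, and without Fabp7 it was 708 and 671 against 692 and 667. The 10 neuron markers summed to 1622 and 1693 in control and 1626 and 1538 in Qk cKO, with none called. All 11 blood markers tested had log2 fold changes above 0 (median 0.39) and 1, Beta-s, was called higher, with summed RPKM of 1110 and 1158 in control and 1664 and 1210 in Qk cKO. Markers of vessels and meninges summed to 191 and 182 in control and 176 and 218 in Qk cKO, and microglia markers to 39.7 and 42.2 against 38.1 and 42.8, with no call in either list. In these bulk samples, fewer cells of a type and less RNA per cell cannot be told apart, and the part of these markers in the members' values was not tested.

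Nuclear respiratory factor 1 (NRF1), the ETS factor GABP and YY1 are known regulators of respiratory genes. Windows from 250 bases before to 50 after each start were taken from RefSeq (GRCm38.p6) and matched by gene ID for 69 of the 82 members. Members without a window included Atp5a1, Cox6a2, Cox6c, Cox8c, Ndufa2, Ndufa4l2, Ndufb9, Ndufs1, Sdhc, Uqcrb, Uqcrc2 and Uqcrq. The NRF1 core GCGCATGCG, searched on both strands, was held by 8 of the 69 (11.6%) and by 1.95% of the 27025 genes with a window. The ETS core CCGGAAG was held by 16 (23.2%) and by 9.93% of genes, the YY1 core AAGATGGCG by 8 (11.6%) and 1.64%, and the TATA box TATAAA by 7 (10.1%) and 15.7%. These letters are descriptions of the windows, and a window without them says nothing of the factor. The 27025 genes were not limited to those expressed in the cortex, and members and other genes were not matched for level.

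The called member Atp5k holds both the NRF1 and the ETS core. The NRF1 cores that end well before the start are shown for 5 members on this account, 5′ to 3′ on the gene's strand, with the motif in capitals (a run of 10 capitals is the palindrome that matches on both strands).
Atp5k, chr5:108434430-108434459, minus strand: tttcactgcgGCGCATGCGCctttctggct
Cox6a1, chr5:115349101-115349130, minus strand: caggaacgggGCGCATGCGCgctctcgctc
Atp5g2, chr15:102671070-102671099, minus strand: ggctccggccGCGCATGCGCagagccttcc
Ndufa11, chr17:56717692-56717721, plus strand: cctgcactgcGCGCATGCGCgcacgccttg
Atp5l, chr9:44920965-44920992, minus strand: aaccaataaCGCATGCGCatttccccca
The motif ended 40 bases before the start in Atp5k, 152 in Cox6a1, 32 in Atp5g2, 50 in Ndufa11 and 232 in Atp5l. The core of Ndufa8 reaches the start itself, and those of Uqcr11 and Uqcrc1 do not lie wholly upstream of it. The 8 members with the NRF1 core had a median log2 fold change of -0.20, all below 0, and the 60 tested members without it -0.12 with 50 below 0. For the ETS core the medians were -0.16 with and -0.11 without, and for the YY1 core -0.10 with and -0.13 without. For the TATA box they were -0.18 with and -0.12 without. Atp5k itself is among the members with the NRF1 core. The sets were not matched for exon length, and no difference between them was tested.

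Alternative splicing of members was compared next. An event is an alternative exon, splice site or intron for which the authors deposited isoform and junction tags, and inclusion is the share of junction tags that supports the first isoform, averaged over its junctions. The files hold 156 events in 56 member genes, of which 50 events in 28 genes had a coverage of at least 20 junction tags and were tested by two-sided Fisher's exact test on tags summed over replicates. Of these, 7 events in 4 genes were called (5 distinct sets of tags, since some are listed more than once), where 7.5% of all 11500 events tested were called. The genes were Ndufv3, Ndufa12 and Ndufa11 of complex I and Cox7c of complex IV. Fisher's exact test takes tags as independent and leaves out the spread between embryos. In edgeR's interaction test, which estimates that spread, none of the member events was called and 7 had an unadjusted p below 0.05. All of the other 43 events differed in inclusion by less than 0.05.

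The call with the smallest p-value was a long alternative exon of Ndufv3, a subunit next to the NADH site. The exon of 1092 nt, or 364 codons, lies at chr17:31527310-31528401 on the plus strand (GRCm38), between introns of 5617 and 2708 nt, and it keeps the reading frame. It is coding and belongs to transcript Ndufv3-201 of GENCODE M21. The exon junctions are shown because their tags give the inclusion, with bases of the long exon in capitals.
Upstream junction: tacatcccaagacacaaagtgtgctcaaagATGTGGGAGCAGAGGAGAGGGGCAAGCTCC
Downstream junction: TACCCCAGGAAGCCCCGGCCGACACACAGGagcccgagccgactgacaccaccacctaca
Skipping junction: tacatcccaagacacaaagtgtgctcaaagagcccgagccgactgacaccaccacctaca
Inclusion of the long exon was 0.0688 (95% Wilson interval 0.0514 to 0.0915) and 0.0657 (0.0491 to 0.0873) in control and 0.0354 (0.0237 to 0.0525) and 0.0420 (0.0287 to 0.0610) in Qk cKO. Both Qk cKO samples lay below both controls, by more than the difference between replicates, while the intervals, which cover counting error only, overlapped in part.

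Inclusion of the Ndufv3 exon was lower in Qk cKO by 0.0286 (two-sided Fisher's exact test, FDR 0.000139). Tags within the exon were 382 and 372 in control and 283 and 271 in Qk cKO, and skipping tags were 576 and 613 against 627 and 584. The downstream junction had 63 and 58.1 tags in control and 19 and 34.1 in Qk cKO, whereas the upstream junction had 22.0 and 28.1 against 27 and 17.1. The difference thus lay in the downstream junction and the exon body, and the upstream junction overlapped between groups. The call was kept with junction tags alone, at either other coverage minimum, with the replicate number as a block and with any sample left out, but not in edgeR's interaction test (FDR 0.366) or when a difference of at least 0.1 was required. The steady-state level of Ndufv3 was not called (log2 fold change -0.13, FDR 0.739 in edgeR's quasi-likelihood test). Qki binds the motif ACTAAC, written here as DNA. No match was found in the 1092 nt of the exon nor in the 1160 of the 2708 nt of the downstream intron for which an annotated transcript gives the sequence, and the rest of the intron was not searched.

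Ndufa11 encodes a membrane subunit of complex I, and its alternative site is an acceptor (3' splice site) at chr17:56721319 on the plus strand, with further acceptors 40 and 47 nt inside the exon. Neither distance is a multiple of 3. The first 47 bases are in capitals in the first line, and the first 40 in the second.
To the acceptor at 56721366: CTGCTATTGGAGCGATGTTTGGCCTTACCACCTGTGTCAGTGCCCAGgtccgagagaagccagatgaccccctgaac
To the acceptor at 56721359: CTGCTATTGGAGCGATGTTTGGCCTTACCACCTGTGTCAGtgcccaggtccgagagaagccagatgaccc
The outer acceptor carried most tags, with 580 and 490 in control and 678 and 535 in Qk cKO. The innermost acceptor had 27.9 and 15.7 tags in control and 11.3 and 8.56 in Qk cKO, and the middle one 54.2 and 37.7 against 59.7 and 49.6. The share of the middle site against the innermost was 0.660 and 0.706 in control and 0.840 and 0.853 in Qk cKO (FDR 0.0448 in Fisher's exact test), and the groups did not overlap. The share of the outer site against the innermost was 0.954 and 0.969 in control and 0.984 and 0.984 in Qk cKO (FDR 0.0448), whereas that of the outer against the middle site, 0.915 and 0.929 in control and 0.919 and 0.915 in Qk cKO, was not called (FDR 0.879). The innermost acceptor was therefore the one used less in Qk cKO, on 8.56 to 27.9 tags per sample. It is used by 0 transcripts of Ndufa11 in GENCODE M21, and the middle one by 1, Ndufa11-204. The call was lost in edgeR's interaction test (FDR 0.632) and without control 1, Qk cKO 1 or Qk cKO 2, with FDR up to 0.359.

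Ndufa12 encodes an accessory subunit next to the core of complex I. Its alternative exon of 61 nt lies at chr10:94215339-94215399 on the plus strand and is annotated in 1 transcript, Ndufa12-203, marked as a target of nonsense-mediated decay. Joining this exon makes a stop codon across the junction, shown here in capitals beside the skipping junction.
Junction with the exon: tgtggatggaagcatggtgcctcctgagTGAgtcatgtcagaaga
Skipping junction: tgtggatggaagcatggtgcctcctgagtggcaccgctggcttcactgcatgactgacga
Inclusion was 0.0488 and 0.0339 in control and 0.0041 and 0.0036 in Qk cKO (FDR 0.0567 in Fisher's exact test). Qk cKO lay below control in both samples, on few tags, since the junctions of the exon held 11.4 and 7.27 tags in control and 1.06 and 1.04 in Qk cKO. The coverage of 20.7 was close to the minimum of 20, and with any sample left out the event could not be tested. The call was lost with the replicate number as a block (FDR 0.116) and in edgeR's interaction test (FDR 0.354). The steady-state level of Ndufa12 had a log2 fold change of -0.02.

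Cox7c, a small subunit of complex IV, has acceptors 16 nt apart on the minus strand, at chr13:86045869 and chr13:86045853. Use of the inner acceptor removes the 16 coding bases in capitals, which shifts the frame.
Cox7c, chr13:86045824-86045869, minus strand: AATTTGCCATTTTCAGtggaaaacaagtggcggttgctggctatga
The share of the outer acceptor was 0.848 and 0.851 in control and 0.761 and 0.776 in Qk cKO, on 145 and 97 tags of the outer acceptor in control against 118 and 83 in Qk cKO, and 26 and 17 of the inner one against 37 and 24. Replicates differed little and the groups did not overlap, but the FDR of 0.0992 in Fisher's exact test lay at the limit. The call was lost with junction tags alone (FDR 0.186), at a coverage minimum of 10 (FDR 0.118), with the replicate number as a block (FDR 0.113), in edgeR's interaction test (FDR 0.632) and with any sample left out. The steady-state level of Cox7c had a log2 fold change of -0.18 (SE 0.161) and its groups overlapped.

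**Figure D4:**
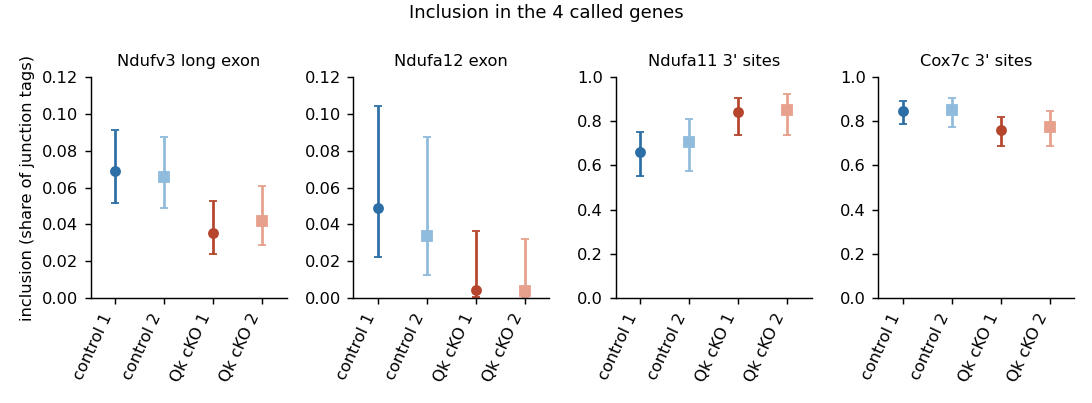
Inclusion in each sample for the Ndufv3 long exon, the Ndufa12 exon (axis to 0.12), the middle against the innermost acceptor of Ndufa11 and the outer acceptor of Cox7c (axis to 1), with 95% Wilson intervals as bars. In each panel both Qk cKO samples lie on one side of both controls, lower in Ndufv3, Ndufa12 and Cox7c and higher in Ndufa11.

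By the size of the difference, the largest among the events tested were in Ndufa11 (0.168), Cox7c (0.082), Sdhc and Ndufs1. The exclusive exons of Sdhc had an inclusion of 0.424 and 0.381 in control and 0.365 and 0.352 in Qk cKO (FDR 0.802 in Fisher's exact test). With junction tags alone this event was called (FDR 0.0837). A cassette exon of Ndufs1 had 0.320 and 0.364 in control and 0.298 and 0.297 in Qk cKO (FDR 0.792). Listed with another flanking splice site, the same exon had 0.355 and 0.286 in control and 0.367 and 0.307 in Qk cKO (FDR 0.988), so that the groups overlapped and the direction was the opposite. The retained introns of Ndufv1 had 0.0354 and 0.0608 in control and 0.0503 and 0.0870 in Qk cKO (FDR 0.239), with overlapping groups.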

How the data were processed

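Poly-A RNA of E14.5 cortex from 2 control and 2 Qk cKO samples, grouped by their labels, was used. The authors aligned reads to mm10 with OLego and quantified them with Quantas. They deposited tags per gene and per splicing event (estimated counts that need not be whole) and RPKM. The depth is the total of tags, and Wilson intervals cover counting error only, whereas intervals of fold changes come from the fit.

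Tags were rounded and compared by the quasi-likelihood test of edgeR 4.0.16 (TMM, R 4.3.3) over genes that had 1 tag or more, and events by Fisher's exact test on tags summed over replicates, adjusted within event type. Alternatives used limma 3.58.1 on log2(RPKM + 0.1) or log2(RPKM + 1), DESeq2 1.42.0, and others given in the closing section. Tests were checked on simulated data. The simulated events had counting error only and no spread between embryos. That check therefore says nothing of how Fisher's exact test behaves with such a spread.

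Members and gene lists were chosen with earlier results of these data known. Genes named were called members, the 3 with the smallest p per complex, the highest and lowest level per complex, paralogs, X-linked members, complex I core subunits, called events and the 4 largest differences of inclusion, 1 per gene. Sequences are from GENCODE M21 (GRCm38, the build of mm10) and RefSeq. Values of 1 named item are left out here.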

Additional observations from a re-analysis of the deposited data

How the results depend on the processing

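The number of members called was 1 with the exact test of edgeR, upper-quartile scaling, the replicate block and the length trend of each sample removed. It was 0 with DESeq2, filterByExpr, a mean RPKM of at least 1 in both groups, the length trend of the fold change removed and limma with either pseudocount, where 2 to 18 members had an unadjusted p below 0.05 with lower levels. With 1 sample left out, the lone sample of its group being assumed to vary like the other group, it lay between 0 and 14, the 14 without Qk cKO 1. The median log2 fold change of members stayed below 0 under all these settings, between -0.20 and -0.02. It was -0.02 with a length trend removed and between -0.20 and -0.03 with 1 sample left out. Among the members named for their p-values, Sdha changed its sign, at -0.00062 in limma with either pseudocount and between -0.0044 (without Qk cKO 1) and 0.0257 (without Qk cKO 2) with 1 sample left out, against 0.01.

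Over all genes, 110 were called in the main comparison, 57 by the exact test, 81 by DESeq2, 11 with filterByExpr, 10 with a mean RPKM of at least 1, 192 with the replicate block, 67 and 158 with the length trend removed from the fold change and from each sample, 1 and 0 in limma, and 0 to 428 with 1 sample left out. For member events, 7 were called, 0 in edgeR's interaction test (7 at an unadjusted p below 0.05, against 13 in Fisher's exact test), 2 at a difference of inclusion of at least 0.1, 5 with the replicate block, and between 1 and 9 with 1 sample left out.

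The replicate numbers come from the labels, with 2 pairs only. Deviations of samples with the same number correlated at 0.534 over 12958 genes and at -0.06 over autosomal genes, and at 0.417 over 77 members. The study calls the embryos littermates, but no source ties a number to a litter or day, and with 2 pairs the numbers were not taken as a pairing.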
